A study of Ciona robusta with 12 samples.

Results

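The comparison described here set 3 libraries of U0126-treated embryos against 3 libraries of DMSO-treated embryos at the 64-cell stage of Ciona robusta, a tunicate, paired by replicate number. These are 6 of the 12 libraries of the series and were chosen by the sample labels alone. Per the labels, whole dechorionated embryos were exposed from the 32-cell stage to U0126 at a labelled dose of 4 mM or to the carrier DMSO diluted 1:1000. They were collected at the 64-cell stage, with RNA from 300 embryos per library. Both groups were grown in artificial seawater and differ, per the labels, only in the inhibitor. The unit of the dose is repeated as labelled and could not be checked here. No strain or clutch is named, so the replicates are separate samples of unstated origin. The p-values concern these samples only, and in the main fit they rest on a spread taken as common to genes of the same level. The other 6 libraries hold the same treatments at the 112-cell stage and are used below to read genes called at 64 cells and in the fits of all 12 libraries.

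U0126 inhibits MEK, the kinase that activates ERK. In the early ascidian embryo, FGF ligands from vegetal cells activate ERK in their neighbours, and ERK-dependent transcription factors then switch on genes that set notochord and neural fates. ERK acts on proteins already present, so transcripts that depend on it can change soon after inhibition. The comparison asks which transcripts had changed at this early collection, by how much, and how evenly over the 3 pairs. In whole embryos, fewer cells that express a gene and less RNA of it per cell cannot be told apart.

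The table lists 15284 gene models by KH2012 identifiers, without symbols. The reference gene table available here held 0 of these identifiers, so genes are given by identifier, without names or roles, and the lineage markers that would check the embryo label could not be looked up. The 6 libraries held 13035651 to 15826803 reads. Of the gene models, 847 had no read in any of the 6 libraries, 3645 had reads but fell under the filter, and 10792 were tested. To be tested, a gene had to reach a normalized count of 10 in 3 or more libraries. Normalized counts are reads per gene after scaling each library by the authors. In the 6 libraries 3 reads, the most that a count of 0 allows, correspond to a normalized count of 2.72 to 3.26, for counting error only.

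With U0126, 75 genes rose (0.695% of those tested) and 71 fell (0.658%), by limma with the replicate number as a block and a Benjamini-Hochberg adjusted p under 0.05. The 2 directions were thus close in number, but the sizes were not the same at the extremes. The rises ended at a log2 fold change of 2.31, while 4 falls were of 8-fold or more and the largest was -4.77. These calls need the pairing: without the block limma called 2 genes lower (0.0185% of those tested) and 0 higher (96 genes had an unadjusted p under 0.05), and edgeR called 1 lower (0.00927%) and 0 higher. With the block, DESeq2 called 30 higher and 30 lower (0.278% each), while limma on all 12 libraries, which weighs each gene's own spread over both stages, called 1 higher (0.00858%) and 4 lower (0.0343%), or 3 higher (0.0258%) and 4 lower with a block per stage.

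KH.L128.12 had the largest fall. It stood at 5.24, 5.43 and 7.23 normalized counts in U0126 replicates 1, 2 and 3, against 92.6, 276 and 258 in the DMSO libraries of the same numbers. Every U0126 library was far below every DMSO library, and the U0126 libraries held 5, 5 and 7 reads. The group means were 5.97 ± 1.09 in U0126 and 209 ± 101 in DMSO embryos (SD, n = 3 each). The log2 difference was -3.91, -5.43 and -4.97 in pairs 1, 2 and 3, a log2 fold change of -4.77 (SE 0.23). With the block its limma adjusted p was 7.23e-93. Unblocked it was 0.0424, on all 12 libraries with a block per stage 0.0101, and over its 17 alternatives 4.81e-108 to 0.0515. Since the U0126 libraries were near the floor, the pseudocount moves the size, to -4.87 when it is 0.5 and to -3.82 when it is 8.

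KH.C11.577 fell almost as far. Its U0126 libraries stood at 10.5, 20.6 and 9.29 normalized counts, against 148, 410 and 295 in the DMSO libraries of the same numbers. The groups did not overlap, and replicate 2 was the highest library of both groups. The group means were 13.5 ± 6.24 in U0126 and 284 ± 131 in DMSO embryos (SD, n = 3 each). The pair differences were -3.69, -4.25 and -4.85, a log2 fold change of -4.26 (SE 0.18). With the block its limma adjusted p was 6.75e-119. Unblocked it was 0.053, on all 12 libraries with a block per stage 0.0019, and under the 17 alternatives 8.29e-130 to 0.0619.

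KH.L50.6 had the largest rise. Its U0126 libraries stood at 140, 208 and 221 normalized counts, against 20.6, 48.8 and 49.0 in DMSO. The lowest U0126 library was above the highest DMSO library, and replicate 1 was the lowest of both groups. The means were 189 ± 43.7 in U0126 and 39.4 ± 16.3 in DMSO embryos (SD, n = 3 each). The pair differences of 2.70, 2.07 and 2.15 gave a log2 fold change of 2.31 (SE 0.15). Its limma adjusted p was 1.04e-46 in the blocked fit, 0.504 unblocked and 0.00314 on all 12 libraries with a block per stage. Under the 17 alternatives it was 9.14e-49 to 0.54.

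KH.C9.872 had 75.5, 161 and 157 normalized counts in U0126 replicates 1, 2 and 3, against 19.6, 52.7 and 37.2 in DMSO. The groups did not overlap, and replicate 1 was again the lowest in both. The means were 131 ± 48.2 and 36.5 ± 16.5 in U0126 and DMSO embryos (SD, n = 3 each). The pair differences were 1.89, 1.59 and 2.05, closer to each other than the levels themselves, with a log2 fold change of 1.84 (SE 0.17). Its limma adjusted p was 7.27e-24 in the blocked fit and 1.00 unblocked. On all 12 libraries it was 0.0162 with a block per stage, and 0.0576 with 1 replicate block over both stages, which lost the call. Under the 17 alternatives it was 2.08e-25 to 1.00.

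**Figure D1:**
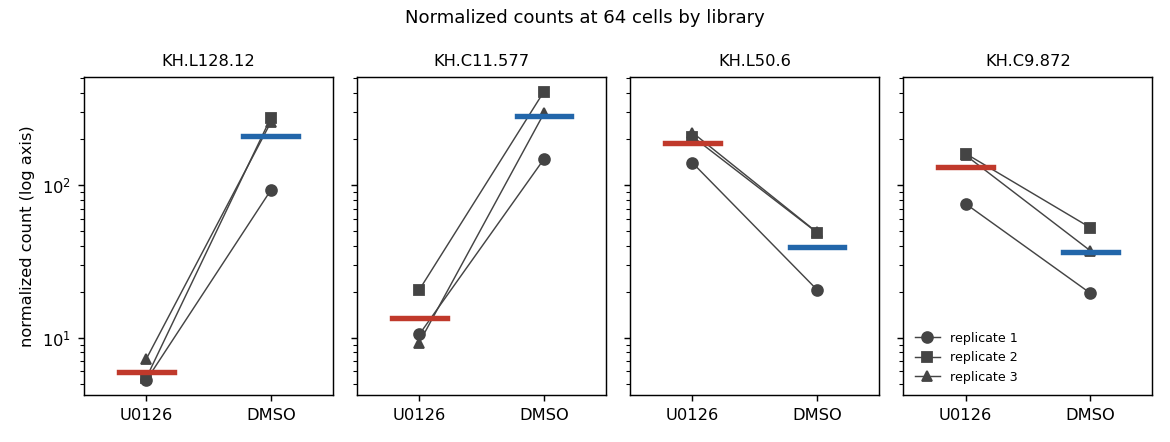
Normalized counts (log axis) of 4 genes in the U0126 and DMSO libraries at 64 cells. Each marker is a library, lines join libraries with the same replicate number, and bars are group means (n = 3). In each panel the 3 lines run the same way, and for KH.L128.12, KH.L50.6 and KH.C9.872 replicate 1 is lowest in both groups.

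Most of the response was modest in size. Of the 75 higher genes, 29 changed less than 1.5-fold, 20 changed 1.5-fold to 2-fold, 24 changed 2-fold to 4-fold and 2 changed more than that. Of the 71 lower genes, 25 changed less than 1.5-fold, 22 changed 1.5-fold to 2-fold, 18 changed 2-fold to 4-fold, 2 changed 4-fold to 8-fold and 4 changed 8-fold or more. The middle 50% of the higher genes had log2 sizes of 0.41 to 1.19, and that of the lower genes 0.46 to 1.12. Over all tested genes the median absolute log2 fold change was 0.08, and 90% lay between -0.26 and 0.24.

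Besides the 2 falls described above, 2 other lower genes changed 8-fold or more. The first averaged 8.32 ± 7.76 normalized counts in U0126 and 108 ± 47.1 in DMSO embryos (SD, n = 3 each). Its pair differences were uneven, at -2.70, -6.00 and -2.98. The U0126 libraries held 7, 1 and 16 reads, so the size in pair 2 rests on 1 read. The second averaged 2.50 ± 2.54 in U0126 and 35.1 ± 16.05 in DMSO embryos, with 1, 5 and 1 reads in the U0126 libraries. The most even fall was that of the other gene called without the block. It stood at 55.6, 54.3 and 60.9 normalized counts in U0126 against 314, 320 and 354 in DMSO libraries. Its pair differences of -2.48, -2.54 and -2.52 differed from each other by an SD of 0.03.

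Not every large estimate was called. Of the 33 tested genes at least 2-fold higher with U0126, 26 were called, and of the 37 at least 2-fold lower, 24 were called. The uncalled ones were near the filter, with median levels of 10.7 normalized counts among the 7 upward and 13.3 among the 13 downward genes. In each of the 3 pairs taken alone, 132, 177 and 202 genes differed at least 2-fold, of which 40, 40 and 60 were called. A difference of at least 2-fold in every pair was seen in 7 genes upward and 11 genes downward, all of them called.

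**Figure D2:**
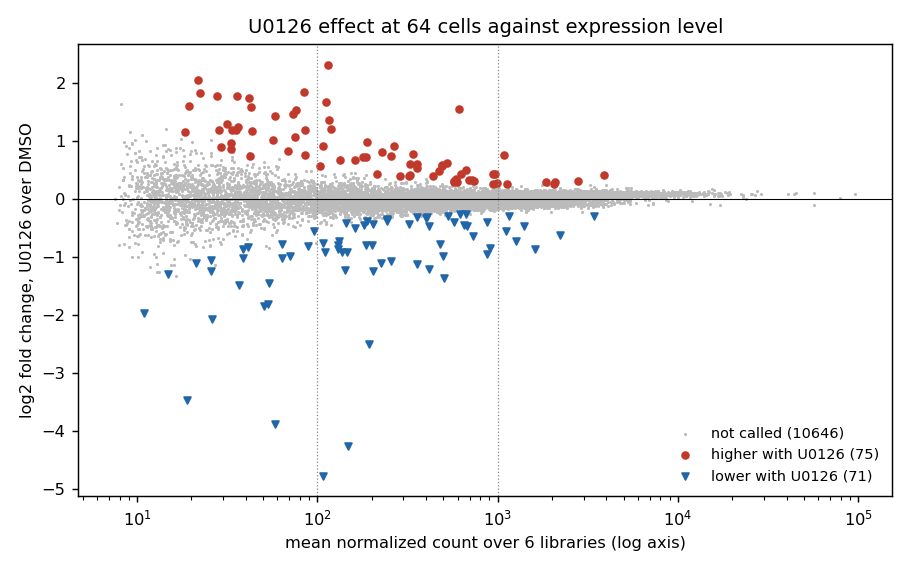
Log2 fold change of U0126 over DMSO against the mean normalized count over the 6 libraries (log axis), for 10792 tested genes. The 75 higher genes reach 2.31 and the 71 lower genes -4.77, and no called gene above a mean of 1000 (right dotted line; the left is at 100) reaches a 2-fold change.

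The responding genes were expressed at low to moderate levels. The higher genes had a median level of 245 normalized counts in U0126 and 139 in DMSO embryos, and the lower genes 151 in U0126 and 237 in DMSO embryos. All tested genes had medians of 531 and 546. Averaged over the 6 libraries, the middle called gene lay at the 29.8th percentile of level among the higher and at the 30.1st among the lower genes. The highest level of any called gene was 3907, while the highest of all tested genes was 96454. Normalized counts are not divided by gene length, so levels of different genes also reflect their lengths.

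The share of genes called changed with level. Under a mean of 100 normalized counts, 27 genes were higher and 20 lower among 2319 tested (2.03% in all). Between 100 and 1000, 41 were higher and 44 lower among 4681 (1.82%). At 1000 and over, 7 were higher and 7 lower among 3792 (0.369%). The median size of a called change was 1.19, 0.58 and 0.36 log2 units in these ranges, in order of level. Called changes of at least 2-fold numbered 35, 15 and 0. The largest change at 1000 and over was a fall of -0.86, with 1070, 1104 and 1238 normalized counts in U0126 against 1818, 2104 and 2281 in DMSO libraries.

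The spread between pairs was smaller at higher levels. The median SD of the 3 pair differences was 0.36, 0.13 and 0.11 log2 units, and the smallest change called was 0.55, 0.26 and 0.25. At 1000 and over, changes down to 0.25 were thus called, in 14 genes in all. Under 100, no change of less than 0.55 was called.

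**Figure D3:**
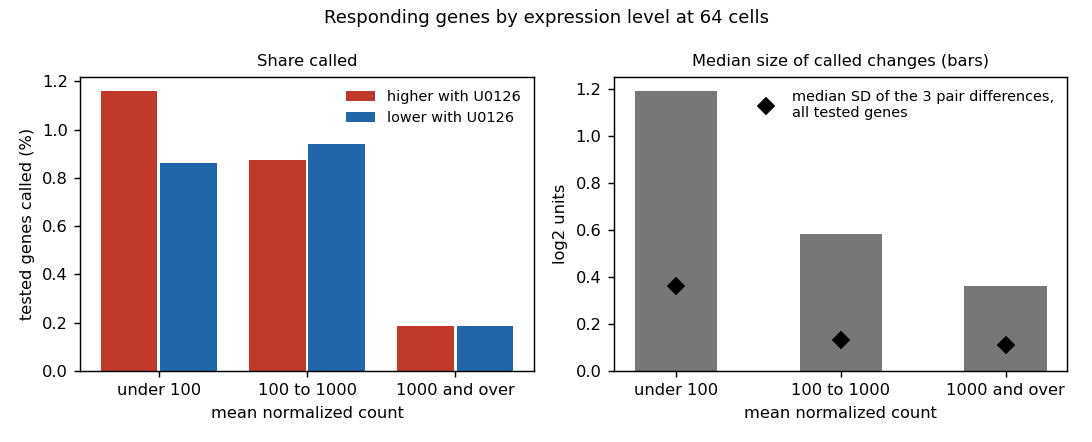
Left, percentage of tested genes called higher or lower with U0126 in 3 ranges of mean normalized count. Right, median absolute log2 fold change of the called genes (bars) beside the median SD of the 3 pair differences over all tested genes in the range (diamonds). The share called is lowest at 1000 and over, 0.185% in each direction.

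The response took up a small part of the RNA. The 75 higher genes held 0.273%, 0.264% and 0.276% of all reads in U0126 replicates 1, 2 and 3, against 0.212%, 0.203% and 0.197% in DMSO. The 71 lower genes held 0.176%, 0.159% and 0.143% in U0126, against 0.260%, 0.247% and 0.230% in DMSO. Since the genes were selected on these values, the separation of the groups is a description. In U0126 embryos 6 of the lower genes (8.45%) averaged under 10 normalized counts, where 1.05% of all tested genes did. In DMSO embryos 3 of the higher genes (4%) did so, where 0.991% of all tested genes did. Of the lower genes 3, of the higher genes 0 and of the 10792 tested genes 67 had a library without reads.

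The direction was even over the pairs in most called genes. Of the higher genes 74 of 75 had a positive difference in all 3 pairs, and of the lower genes 65 of 71 had a negative one in all 3. Among all tested genes 14.4% were positive and 17.2% negative in all 3 pairs. The groups did not overlap in 38 of the higher genes, where 1.16% of all tested genes had all U0126 libraries above all DMSO libraries. They did not overlap in 41 of the lower genes, where 1.91% of all tested genes had them below. The call uses the same differences, so these counts describe the called genes and do not test them.

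The size was less even than the direction. In 48 higher (64%) and 50 lower genes (70.4%) the weakest pair reached at least 50% of the mean difference, against 11% of all tested genes. The call uses these differences too, so the shares are a description. The weakest pair stood at a median of 0.54 of the mean difference in the higher and 0.68 in the lower genes. The median difference of the higher genes was 0.57, 0.56 and 0.82 in pairs 1, 2 and 3, and 38 of the 75 had their largest difference in pair 3. The median of the lower genes was -0.65, -0.87 and -0.72, and 30 of the 71 had their largest difference in pair 2. In the 7 called genes whose sign differed in a pair, limma adjusted p-values still ran from 1.88e-19 to 0.0499, because the fit gives genes of the same level a common spread. The most uneven of them had 57.7, 18.5 and 48.5 normalized counts in U0126 against 36.5, 107 and 114 in DMSO libraries.

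**Figure D4:**
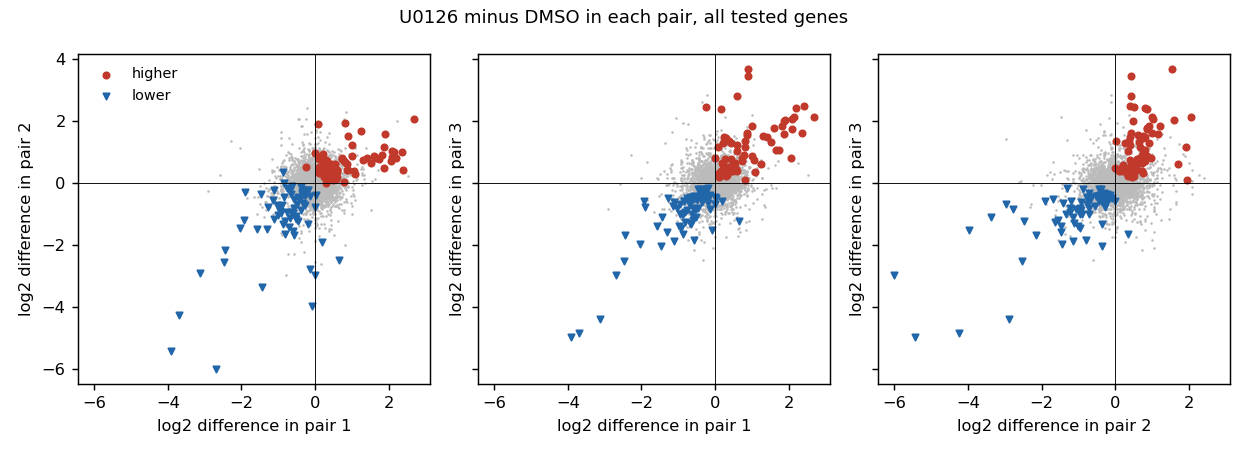
Log2 difference of U0126 minus DMSO in each pair, plotted for pairs 1 and 2, 1 and 3, and 2 and 3. Points are 10792 tested genes, with the 75 higher and 71 lower genes marked. Most called genes fall in the quadrants where both pairs have the same sign, and the grey points spread around 0.

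Over all tested genes, differences of separate pairs were weakly related. Pearson's r was 0.20 between pairs 1 and 2, 0.29 between pairs 1 and 3 and 0.27 between pairs 2 and 3, across 10792 genes. The pairs have no library in common, but the genes of a pair share its 2 libraries and are not independent, so r is given as a description. The SD of the differences over genes was 0.27, 0.34 and 0.31 log2 units in pairs 1, 2 and 3.

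Each pair was then set against genes called without it, which gives a reading in libraries that had no part in the call. Without pair 1, 66 genes were called higher (0.607% of those tested) and 58 lower (0.534%). In pair 1, 57 of the 66 were higher with U0126, against 46.1% of all tested genes, and 52 of the 58 were lower, against 53.7%. Their median differences in that pair were 0.53 and -0.64, compared with 0.95 and -1.02 in the pairs used for the call.

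Pairs 2 and 3 gave the same direction for most genes. Without pair 2, 97 genes were called higher (0.884%) and 82 lower (0.748%). In pair 2, 83 of the 97 were higher, against 49.2% of all tested genes, and 64 of the 82 were lower, against 50.4%. Their medians there were 0.36 and -0.41, and 0.45 and -0.62 in the other pairs. Without pair 3, 35 genes were called higher (0.32%) and 45 lower (0.411%). In pair 3, 33 of the 35 were higher, against 51.8% of all tested genes, and 44 of the 45 were lower, against 48% of them. Their medians there, 1.07 and -0.85, were close to the 1.11 and -1.05 of the other pairs. Each of these fits has 1 residual degree of freedom, and a gene called in more than one of them is counted in each.

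**Figure D5:**
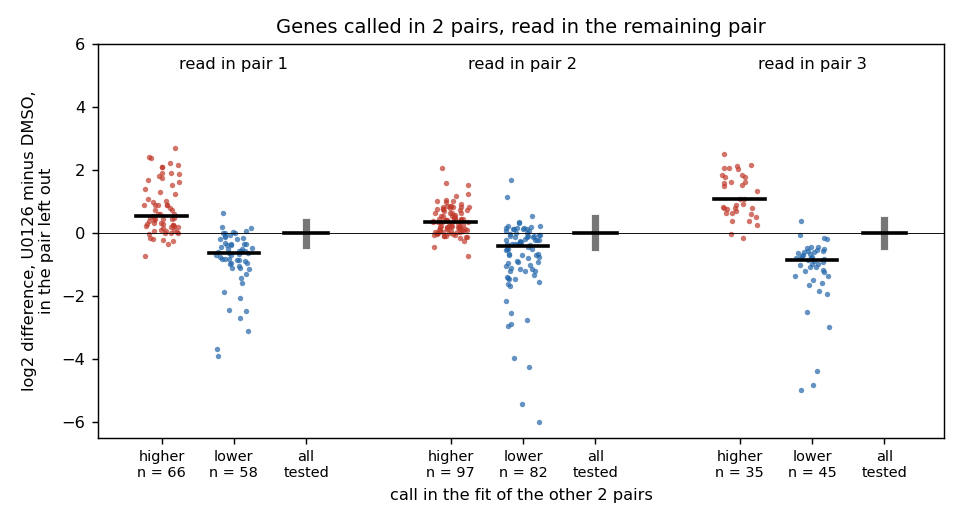
Log2 difference of U0126 minus DMSO in the pair left out, for genes called higher or lower in the fit of the other 2 pairs. Points are genes, black bars are medians, and grey bars span the 5th to 95th percentile of all tested genes. The medians of the higher genes (0.53, 0.36 and 1.07) lie above 0 and those of the lower genes (-0.64, -0.41 and -0.85) below it.

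Of the 146 genes, 65 were called in the full fit and in all 3 fits without a pair, 30 higher and 35 lower. They had a median size of 1.11 log2 units and a median level of 149 normalized counts, and 34 of them changed at least 2-fold. The groups did not overlap in 47 of these 65, where they did not overlap in 3.07% of all tested genes. The 65 were selected on the same libraries, so this count describes them and does not test them. At the other end, 14 genes were called in none of the 3, with a median size of 0.41. No gene of the 146 changed direction in any of the 17 alternatives that tested it. This is a description, because fits without the block, with robust moderation, with other filters or against a minimum change keep the main estimate. The other alternatives reuse libraries on which the genes were called.

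Levels also differed between the replicate numbers. The range of the 3 replicate-number means had a median of 0.68 log2 units in the higher and 0.65 in the lower genes, against 0.38 in all tested genes. It exceeded the treatment effect in 23 of the 75 higher (30.7%) and 25 of the 71 lower genes (35.2%), and in 94.2% of all tested genes. Replicate 1 was the lowest number in 37 of the higher genes (49.3%), compared with 33.4% of all tested genes and 32.4% of the lower genes. Of the 12 higher genes that the naming rule picks, 10 had their lowest level in replicate 1, and of the 12 lower genes 5 did. What the replicate numbers share is not stated in the labels, and its part in these levels was not tested.

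The identifiers also give a class letter, whose meaning the files do not state. Of 7599 tested models in class C, 54 were higher and 52 lower (1.39%). In class L 16 were higher and 11 lower among 2146 (1.26%), and in class S 5 were higher and 8 lower among 1047 (1.24%). Among all tested genes 1.35% were called.

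The 4 named genes were read again at 112 cells, in the other libraries and on that table's own scale. KH.L128.12 stood at 13.1, 9.94 and 4.30 normalized counts in U0126 against 379, 339 and 396 in DMSO embryos (log2 fold change -5.31, limma adjusted p = 0.0182). KH.C11.577 stood at 14.1, 12.9 and 15.1 in U0126 against 1467, 1326 and 1679 in DMSO embryos (log2 fold change -6.63, limma adjusted p = 0.00163). The U0126 libraries of these 2 genes thus held low counts at both stages. KH.L50.6 stood at 1060, 1067 and 1108 in U0126 against 631, 685 and 712 in DMSO embryos (log2 fold change 0.67, limma adjusted p = 0.154). KH.C9.872 stood at 582, 631 and 675 in U0126 against 201, 247 and 171 in DMSO embryos (log2 fold change 1.62, limma adjusted p = 0.0565). Both missed the threshold at 112 cells, although every U0126 library was above every DMSO library. Adjusted p-values and calls of the 2 stages come from separate fits and are not comparable in size. For KH.C11.577 the limma adjusted p was 6.75e-119 at 64 cells (SE 0.18) and 0.00163 at 112 cells (SE 0.14). Of the 71 lower genes 49 (69%) had a more negative estimate at 112 cells than at 64 cells, and 40 (56.3%) were at least 2-fold lower there. Of the 74 higher genes tested at 112 cells 36 (48.6%) had a larger estimate there, and 25 (33.8%) were at least 2-fold higher. Among the 10704 genes tested at both stages, 60.5% had a larger estimate at 112 cells in the direction of their 64-cell estimate, and 3.06% changed at least 2-fold in that direction. By the test at 112 cells, 16 of the 71 were called lower, where 0.398% of all tested genes were. By limma with the block 0 of the 74 were called higher there, where 0.0354% of all tested genes were, while 57 (77%) were higher at an unadjusted p under 0.05, and without the block limma called 10. Among the 10704 genes, 552 (5.16%) had such a p and 53 were called without the block, in the direction of their 64-cell estimate.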

How the data were processed

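Embryos were profiled by RNA sequencing of stranded mRNA libraries, per the labels' protocols. Per the file headers, the table of each stage holds a signal per gene and library, namely reads after scaling for library size by the authors. It also holds the authors' regularized log2 values, which were not used. The submitters' processing notes name TopHat2 (2.9.8b) and DESeq (1.8.1). The read counter, its strand setting and the build were not given in the sources used here, so counts of overlapping, antisense and near-identical genes are uncertain.

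Each library's values were whole multiples of its smallest value in 100% of cases (tolerance 0.01), which gave whole reads for edgeR 4.0.16, DESeq2 1.42.0 and voom. The main test was run with limma 3.58.1 under R 4.3.3. It took log2(normalized count + 1) of the 64-cell libraries, with a variance trend, treatment, and replicate number as a block. Fold changes on this scale understate changes of low genes. The fit has 2 residual degrees of freedom, and limma took the spread as common to genes of the same level. All its p-values and calls rest on that, the very small ones included. An exact test of 1 gene over 3 pairs could not go below 0.25. The steps were tested on data simulated with the same dispersion in every gene. That cannot show how the fit behaves where genes of the same level differ in spread.

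The numbers pair the samples, from the data: deviations from group means correlated at 0.839 to 0.870 for the same number, with 3 pairs. For different numbers they correlated at -0.556 to -0.214. A gene's deviations cancel out within a group, so these negative values follow on average from the positive ones and add no evidence.

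Members, lists and tests were chosen with earlier results of these data known. Genes were named by size among called genes with a mean of at least 50 and the same sign in 3 pairs. Of the 56 higher and 54 lower genes that met this, the rule takes the 12 with the largest change per direction, of which 2 are named because the identifiers have no symbols. The symbol-based lists could not be matched. Reading genes in the pair left out, and testing stages against each other, were chosen after the data were seen.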

Additional observations from a re-analysis of the deposited data

Results flagged for a closer look

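Among the 4 named genes, the log2 fold changes of KH.C11.577 and KH.L50.6 differed between the stages. The test was limma on all 12 libraries with a replicate block per stage, applied to the difference itself over all genes. For KH.C11.577 the log2 fold change was -6.63 at 112 cells and -4.26 at 64 cells. On a scale common to both stages the difference was -2.38 (SE 0.30), with a limma adjusted p of 0.0402. Its means at 64 and 112 cells were 13.5 and 14 normalized counts in U0126, and 284 and 1491 in DMSO embryos. The table of each stage has its own scale. For KH.L50.6 the log2 fold change was 0.67 at 112 cells and 2.31 at 64 cells. Its difference was -1.64 (SE 0.19), with a limma adjusted p of 0.0347. Its means at 64 and 112 cells were 189 and 1079 in U0126, and 39.4 and 676 in DMSO embryos. KH.L50.6 was named for the size of its rise at 64 cells. For KH.L128.12 the difference was -0.57 (SE 0.52, limma adjusted p = 0.666), and for KH.C9.872 -0.23 (SE 0.22, limma adjusted p = 0.671). The stages coincide with the deposited tables, so stage and any batch of collection cannot be told apart.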

How the results depend on the processing

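The count of 146 genes (75 higher, 71 lower) was 132 by edgeR, 144 with robust moderation, 139 by voom, 140 with TMM scaling, 153 and 143 with pseudocounts of 0.5 and 8, 141 without the filter and 118 with a filter at 50, all with the replicate block. Of the 146, these fits shared 128, 138, 132, 138, 146, 140, 117 and 117, in the same order. It was 60 (30 higher, 30 lower) by DESeq2 and 39 (18 higher, 21 lower) in a test against a log2 change of 0.5. Without the replicate block it was 2 (0 higher, 2 lower) by limma and 1 (0 higher, 1 lower) by edgeR. In fits of all 12 libraries it was 5 (1 higher, 4 lower) with 1 replicate block over both stages and 7 (3 higher, 4 lower) with a block per stage, and the 7 included all 4 named genes. These fits weigh each gene's own spread, 112-cell libraries included, and the cause of the lower count was not tested. Leaving out a replicate number gave 80 to 179 genes, 35 to 97 higher and 45 to 82 lower, the lowest without replicate 3. With the block, leaving out 1 library leaves the same estimate as leaving out its pair.

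KH.L128.12 kept its call in 16 of 17 alternatives, KH.C11.577 and KH.L50.6 in 15 and KH.C9.872 in 14. The sign was the same in all 3 pairs for 139 of the 146 called genes, for 142 of the 153 called with a pseudocount of 0.5 and for 138 of the 143 called with 8.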
